A study of Mus musculus with 8 samples.

Results

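The genes described are 31 genes of glycolysis and of the glucose response to low oxygen: glucose and lactate transporters, the enzymes from hexokinase to lactate dehydrogenase, the kinases that set fructose-2,6-bisphosphate, the 4 pyruvate dehydrogenase kinases, and the hypoxia genes Hif1a, Egln3 and Bnip3. They were taken by name as 54 of the 55681 non-control probes of an Agilent mouse 8x60K one-colour array, and all 31 were among the 27110 genes tested. The cells were satellite cells, the stem cells that lie along muscle fibres, sorted from C57BL/6J mice aged 3 to 4 months. They were transduced in culture with a lentivirus that integrates either eGFP cDNA (the control, 4 arrays) or Hoxa9 cDNA with eGFP cDNA (the Hoxa9 group, 4 arrays), and eGFP-positive cells were sorted 5 days later. Both groups thus share the sort, the culture, a genomic integration and eGFP, and differ by the Hoxa9 cDNA, which encodes a homeobox transcription factor. The labels name no promoter of the transgene, and do not state whether samples within a group stem from different mice. The p-values therefore reflect only sample-to-sample spread, which may be technical.

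Glycolysis splits glucose into pyruvate, and most of its steps have several isozymes that are made in different tissues. Pyruvate is then either reduced to lactate by lactate dehydrogenase or fed into the mitochondrial citric acid cycle by the pyruvate dehydrogenase complex. Pyruvate dehydrogenase kinases phosphorylate that complex and switch it off, which keeps pyruvate out of the cycle. The factor HIF-1, whose oxygen-regulated subunit is encoded by Hif1a, turns on many glycolytic genes together with Pdk1 when oxygen is low, and Pdk4 is the kinase known to respond to fasting in muscle. Quiescent satellite cells rely mainly on fatty acid oxidation, and their activation in culture is accompanied by a shift towards glycolysis.

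Of the 31 members, 4 rose in the Hoxa9 arrays and 4 fell, and the other 23 did not pass the test. The members that rose were Pdk4, Pdk2, Aldoc and Eno2, and those that fell were Pdk1, Pfkl, Pgam1 and Hif1a. A difference was called where limma's p-value, adjusted by Benjamini-Hochberg over all 27110 genes, was under 0.05. The 4 higher members are 12.9% of the list beside 7.71% of all genes tested, and the 4 lower members are 12.9% beside 7.41%. The 4 rises were called under each of the 18 alternative processings tried, while the falls were less stable, as given with each gene. The members' median log2 difference was -0.05 beside -0.08 over all genes, and the median size of the difference, whatever its sign, was 0.29 beside 0.37. The difference was over 1 on the log2 scale, a doubling, in 4 members, which are the 4 that rose.

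**Figure D1:**
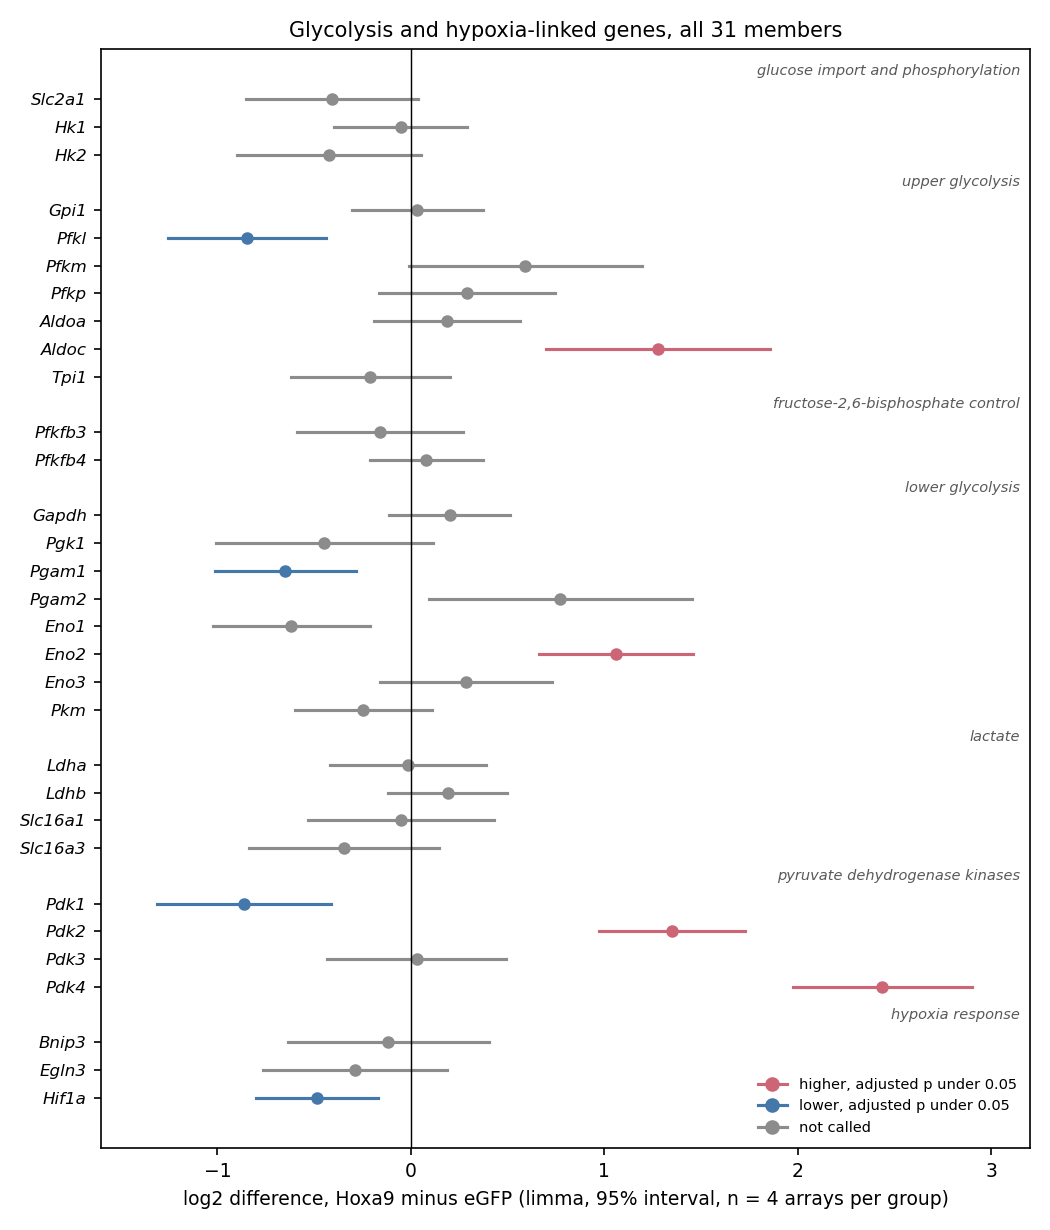
Log2 difference of each of the 31 members, Hoxa9 minus eGFP, with its 95% interval from limma (n = 4 arrays per group), grouped by role along the vertical axis. Pdk4, at 2.44, lies farthest from 0, and 23 members in grey did not pass the test.

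The start regions of the 4 members that rose and of Pdk1 are shown. Many glycolytic genes are known targets of HIF-1, which binds the core motif ACGTG or GCGTG. The 3 pyruvate dehydrogenase kinase genes that were called did not move in 1 direction. The regions of Pfkl, Pgam1 and Hif1a, which fell, are not shown, and each of these holds a match as well. Each line gives the 250 bases before the farthest upstream start that RefSeq lists for the gene (GRCm38.p6), 5′ to 3′ in the direction of the gene, with matches to the core motif on either strand in capitals. They are Pdk4 (chr6:5496279-5496528, minus strand), Pdk2 (chr11:95041372-95041621, minus strand), Pdk1 (chr2:71872974-71873223, plus strand), Aldoc (chr11:78322823-78323072, plus strand) and Eno2 (chr6:124769674-124769923, minus strand).
Pdk4 promoter: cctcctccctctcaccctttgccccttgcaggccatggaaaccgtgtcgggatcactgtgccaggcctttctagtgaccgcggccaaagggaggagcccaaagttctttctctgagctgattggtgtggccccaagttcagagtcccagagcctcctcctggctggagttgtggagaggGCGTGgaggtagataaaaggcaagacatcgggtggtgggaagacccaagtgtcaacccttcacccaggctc
Pdk2 promoter: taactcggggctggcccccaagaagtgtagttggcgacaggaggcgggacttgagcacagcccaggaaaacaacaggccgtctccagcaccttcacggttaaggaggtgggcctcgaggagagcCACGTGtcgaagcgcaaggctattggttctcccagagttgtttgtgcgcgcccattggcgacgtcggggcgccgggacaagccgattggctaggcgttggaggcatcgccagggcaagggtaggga
Pdk1 promoter: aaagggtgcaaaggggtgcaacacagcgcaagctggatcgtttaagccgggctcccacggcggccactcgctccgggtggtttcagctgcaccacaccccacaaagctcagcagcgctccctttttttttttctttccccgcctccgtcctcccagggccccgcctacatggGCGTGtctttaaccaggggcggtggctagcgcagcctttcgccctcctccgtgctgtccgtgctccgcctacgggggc
Aldoc promoter: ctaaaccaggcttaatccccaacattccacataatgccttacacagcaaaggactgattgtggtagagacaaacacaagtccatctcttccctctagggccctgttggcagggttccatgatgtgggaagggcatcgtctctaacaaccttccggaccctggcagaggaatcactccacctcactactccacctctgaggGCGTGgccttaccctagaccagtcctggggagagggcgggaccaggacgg
Eno2 promoter: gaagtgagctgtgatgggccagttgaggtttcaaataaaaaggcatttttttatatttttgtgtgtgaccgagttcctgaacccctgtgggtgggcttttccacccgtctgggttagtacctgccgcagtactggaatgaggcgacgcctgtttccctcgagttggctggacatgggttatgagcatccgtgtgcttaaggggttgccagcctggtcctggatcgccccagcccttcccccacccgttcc

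The Pdk4 region holds GCGTG 71 bases before the start, Pdk1 holds it 78 bases before and Aldoc 50 bases before. The Pdk2 region holds CACGTG, where a match on each strand overlaps, 126 and 125 bases before the start. No match lies in this window of Eno2. Pdk2 and Pdk1 each have another listed start, whose window holds no match. The other listed start of Aldoc has GCGTG 39 bases before it. The search covered ACGTG and GCGTG on both strands in the 250 bases before each of 45 RefSeq starts, which matched all 31 members. A match was found in 35 of the 45 (77.8%), beside 38.6% of 32851 promoters of all genes. The members' promoters are also richer in G and C, with a median of 60.4% beside 52.4% over all promoters, and 64.1% of the 8862 promoters with at least 60.4% hold a match. By gene, 7 of the 8 called members and 20 of the 23 others hold a match in at least 1 promoter, beside 41.5% of all 27025 genes. The windows of nearby starts overlap, as for Eno1, so the count by promoter can hold 1 site more than once. A match is a run of letters and not a measured site.

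Levels below are log2 signals relative to the array's own 75th percentile, so that 0 marks that percentile. All 31 members were well above background on all 8 arrays, and 27 lay above the 75th percentile on every array. Hoxa9 itself was read by 2 probes that moved in opposite directions. The brighter rose by 5.97 (SE 0.24) and the other fell by 1.75 (SE 0.15), both without overlap between the groups. The 8 arrays lay on 3 slides, each of which held both groups, so the differences were also read within slides. The number of arrays limits the precision: the SE of the members' log2 differences ran from 0.13 to 0.30.

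Of the 4 pyruvate dehydrogenase kinases, Pdk4 and Pdk2 rose, while Pdk1 fell and Pdk3 did not pass. Pdk4 rose 5.42-fold. It read 1.88, 1.62, 1.68 and 1.57 on the 4 eGFP arrays and 3.85, 3.86, 4.15 and 4.63 on the Hoxa9 arrays, in replicate order. The Hoxa9 arrays all lay far above the control arrays, and replicate 4 was the highest. The group means were 1.69 ± 0.14 and 4.12 ± 0.37 (SD, n = 4), a log2 difference of 2.44 (SE 0.20, 95% interval 1.97 to 2.90, limma adjusted p = 0.000186). Within the 3 slides the difference was 2.88, 2.18 and 2.58.

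Pdk2, which encodes the kinase found in most tissues, rose 2.55-fold. Its levels were -0.04, -0.38, -0.62 and -0.13 on the eGFP arrays and 1.11, 1.18, 0.94 and 1.01 on the Hoxa9 arrays. The Hoxa9 arrays were tightly grouped (SD 0.11) and did not overlap the eGFP arrays. The log2 difference was 1.35 (SE 0.16, limma adjusted p = 0.0011), and within slides it was 1.22, 1.77 and 1.07. A second Pdk2 probe, dimmer than the first, rose by 0.96 and was called as well.

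Pdk1, the kinase known as a HIF-1 target, went the other way. Its signal was 0.44, 0.21, -0.06 and 0.77 on the eGFP arrays and -0.52, -0.41, -0.72 and -0.44 on the Hoxa9 arrays. Every Hoxa9 array lay under every eGFP array, and the eGFP arrays were the more spread. The 1.82-fold fall was a log2 difference of -0.86 (SE 0.20, limma adjusted p = 0.0204), with -0.77, -0.40 and -1.49 within the slides. Over the 18 alternatives the adjusted p ran from 0.0114 to 0.0696, and the call was lost in 4 of them: with the slide as a block (0.0696), without eGFP replicate 1 (0.0543), without Hoxa9 replicate 1 (0.0543) and without Hoxa9 replicate 3 (0.0598). Pdk3, on the X chromosome, differed by 0.03 (95% interval -0.43 to 0.49).

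The gap between Pdk4 and Pdk1 was read within arrays. On each array the log2 signal of one gene was taken minus that of the other, and the change of this gap between groups shows unequal change of the pair, not a ratio of transcripts. The gap widened by 3.30, from a mean of 1.35 ± 0.39 to 4.65 ± 0.39 (SD, n = 4), and no Hoxa9 array came near an eGFP array. Since Pdk4 separated the groups upward and Pdk1 downward, their gap could not overlap, and it is given as a description with no test. The same holds for Eno2 against Eno1. Another 9 isozyme pairs were compared with an exact two-sided permutation test over arrays, in which 4 against 4 cannot give a p below 0.0286. In 5 of these pairs that smallest p was reached. Each of the 5 holds a gene whose own levels did not overlap between the groups: Pfkl (in 2 pairs), Aldoc, Pgam1 and Eno1. Their p-values are therefore not separate from the differences of these genes. Adjusted by Benjamini-Hochberg over the 9 pairs, the smallest p is 0.0514, so that none passed. Over all 11 pairs it is 0.0449, a value that counts the 2 gaps fixed by their genes.

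**Figure D2:**
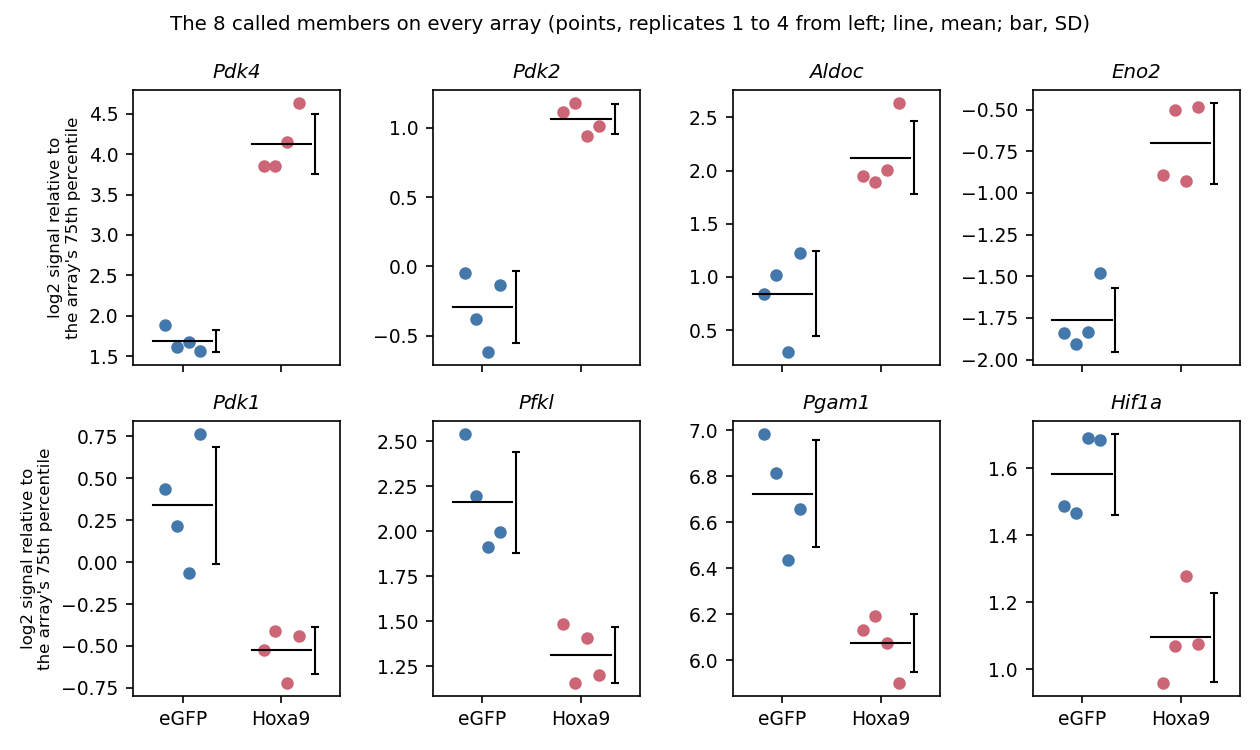
Log2 signal relative to the array's 75th percentile of the 8 called members on every array, eGFP in blue and Hoxa9 in red, with replicates 1 to 4 from left to right, the line at the mean and the bar at 1 SD. In each panel the 4 Hoxa9 arrays lie wholly above or wholly below the 4 eGFP arrays, and the vertical scales differ between panels.

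Glucose import and phosphorylation gave no call. Slc2a1, which encodes the widely expressed transporter GLUT1, read between 3.22 and 3.81 on the eGFP arrays and between 2.86 and 3.48 on the Hoxa9 arrays, a log2 difference of -0.41 (95% interval -0.85 to 0.04, limma adjusted p = 0.222). The groups overlapped, although all 4 same-numbered pairs were negative, from -0.63 to -0.30. Hk2, the hexokinase typical of muscle, differed by -0.43 (95% interval -0.90 to 0.05), and Hk1, the broadly expressed one, by -0.05 (-0.40 to 0.29). The sign of Hk1 turned under quantile normalization, where it was 0.19.

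In upper glycolysis, 1 member rose, 1 fell and 5 did not pass. Aldoc, the brain-type aldolase, rose 2.42-fold. Its levels were 0.84, 1.02, 0.29 and 1.23 on the eGFP arrays and 1.95, 1.89, 2.01 and 2.63 on the Hoxa9 arrays. Hoxa9 replicate 4 stood above the other 3, and the lowest Hoxa9 array was still above the highest eGFP array. The log2 difference was 1.28 (SE 0.25, limma adjusted p = 0.0107), and it was 1.71, 1.63 and 0.78 within the slides. Aldoa, the muscle-type aldolase, differed by 0.19 (95% interval -0.19 to 0.56). The Aldoc to Aldoa gap differed by 1.09 (exact permutation p = 0.0286, 0.0514 adjusted over the 9 pairs), from 0.26 in the pair numbered 2 to 1.64 in the pair numbered 4.

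Phosphofructokinase is the committed step of glycolysis, and 1 of its 3 genes was called. Pfkl, the liver-type gene, fell from 2.54, 2.20, 1.91 and 1.99 on the eGFP arrays to 1.48, 1.16, 1.41 and 1.20 on the Hoxa9 arrays. The groups did not overlap, and eGFP replicate 1 was the highest array. The 1.80-fold fall was a log2 difference of -0.85 (SE 0.18, limma adjusted p = 0.014), with -1.17, -0.59 and -0.59 within the slides. Its adjusted p ran from 0.00601 to 0.0563 over the alternatives, and the call was lost under median scaling (0.0517) and with the slide as a block (0.0563). Pfkm, the muscle-type gene, had a log2 difference of 0.59 (95% interval -0.01 to 1.19) and Pfkp, the platelet-type gene, 0.29 (-0.16 to 0.75), and neither passed. The gap of Pfkm to Pfkl differed by 1.44 and that of Pfkp to Pfkl by 1.14, each at the smallest exact permutation p of 0.0286 (0.0514 adjusted).

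The remaining upper members moved little. Gpi1, glucose-6-phosphate isomerase, differed by 0.03 (95% interval -0.31 to 0.37), and Tpi1, triosephosphate isomerase, by -0.21 (-0.62 to 0.20). Pfkfb3 and Pfkfb4, which make and break down the phosphofructokinase activator fructose-2,6-bisphosphate, differed by -0.16 and 0.08. Their gap differed by 0.24, which did not pass (exact permutation p = 0.2, 0.257 adjusted).

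In lower glycolysis, Eno2 rose, Pgam1 fell and 6 members did not pass. Eno2, the neuronal enolase, read -1.84, -1.91, -1.83 and -1.48 on the eGFP arrays and -0.89, -0.50, -0.93 and -0.49 on the Hoxa9 arrays. The highest eGFP array, replicate 4, remained below the lowest Hoxa9 array. This is a 2.09-fold rise, a log2 difference of 1.06 (SE 0.17, limma adjusted p = 0.0044), with 1.39, 1.14 and 0.55 within the slides. Eno1, the broadly expressed enolase, went from 8.39, 8.14, 7.81 and 8.14 to 7.64, 7.66, 7.50 and 7.21. The groups did not overlap, but the log2 difference of -0.62 (SE 0.18) missed the threshold, with an adjusted p of 0.0501 that ran from 0.0202 to 0.154 over the alternatives. Eno3, the muscle enolase, differed by 0.28 (95% interval -0.16 to 0.73).

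The gap of Eno2 to Eno1 was wider by 1.68 on the Hoxa9 arrays, which restates that both genes separated the groups, in opposite directions. That of Eno3 to Eno1 differed by 0.90 (exact permutation p = 0.0286, 0.0514 adjusted). The Eno3 to Eno1 gap was -0.94, -0.82, -1.04 and -1.23 on the eGFP arrays and -0.26, -0.47, -0.10 and 0.41 on the Hoxa9 arrays. The eGFP arrays were close together and the Hoxa9 arrays were spread, with replicate 4 the farthest out.

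Pgam1, the broadly expressed phosphoglycerate mutase, fell 1.57-fold. It read 6.98, 6.82, 6.44 and 6.66 on the eGFP arrays and 6.13, 6.19, 6.08 and 5.90 on the Hoxa9 arrays. No array of one group reached the other. The log2 difference was -0.65 (SE 0.16, limma adjusted p = 0.0281), with -0.998, -0.28 and -0.58 within the slides. This call was lost in 9 of the 18 alternatives, among them median scaling (0.11), normexp background correction (0.0555), the slide as a block (0.0938) and the removal of any 1 of eGFP replicates 1, 2 and 4 or Hoxa9 replicates 1, 3 and 4. Over all alternatives the adjusted p ran from 0.00977 to 0.11.

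Pgam2, the muscle mutase, read 2.90, 2.73, 3.44 and 3.80 on the eGFP arrays and 3.62, 3.72, 4.07 and 4.55 on the Hoxa9 arrays. The groups overlapped, because replicates 3 and 4 were higher than 1 and 2 in both. Its log2 difference of 0.77 (SE 0.30) did not pass with group alone (limma adjusted p = 0.131). With the replicate number as a block it did (0.0197), the only one of the 18 alternatives to call it, for which the range was 0.0197 to 0.293. The 4 same-numbered differences were 0.73, 0.99, 0.63 and 0.75. Within the slides the difference was uneven, at 1.73, 0.23 and 0.27, and with the slide as a block the limma adjusted p was 0.192. No slide held like-numbered samples of both groups, so a within-slide difference also holds any difference between replicate numbers. The gap of Pgam2 to Pgam1 differed by 1.42 (exact permutation p = 0.0286, 0.0514 adjusted).

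**Figure D3:**
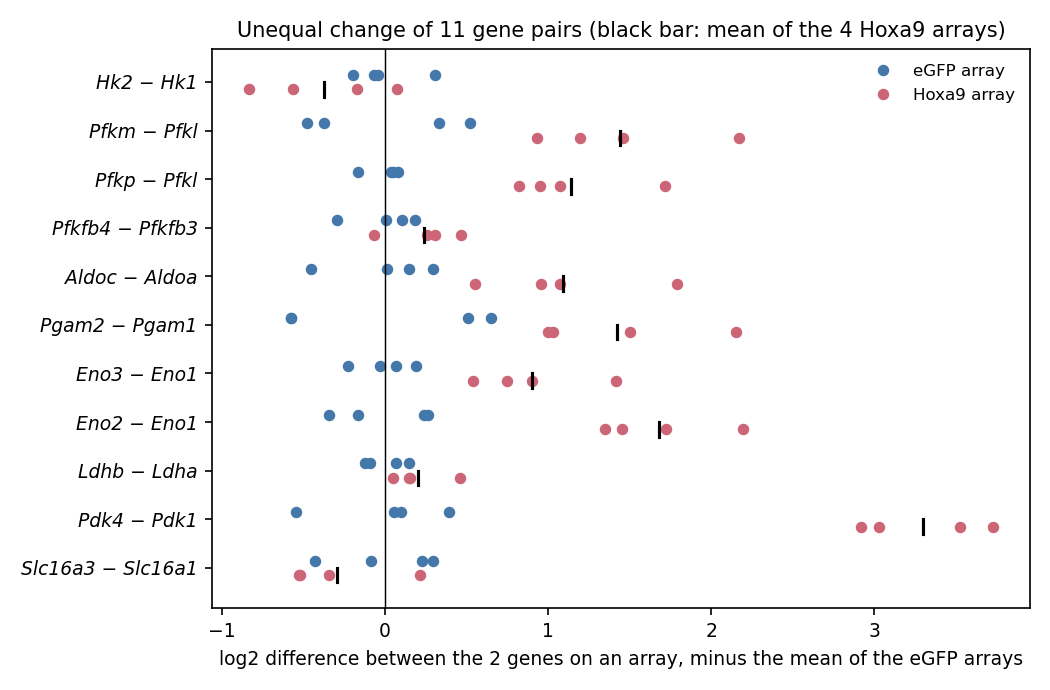
Log2 difference between the genes of each of 11 pairs on every array, with the mean of the eGFP arrays set to 0, blue for eGFP and red for Hoxa9 arrays. In 7 pairs the 4 Hoxa9 arrays lie wholly to the right of the 4 eGFP arrays, with Pdk4 to Pdk1 the farthest, at a mean of 3.30.

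In the other 4 pairs the groups overlapped: Pfkfb4 to Pfkfb3, Hk2 to Hk1, Ldhb to Ldha and Slc16a3 to Slc16a1. The Hk2 to Hk1 gap differed by -0.37 (exact permutation p = 0.229, 0.257 adjusted). Several of the pairs share a gene or were measured on the same arrays, so they are not separate pieces of evidence.

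Gapdh, often used as a reference gene, differed by 0.20 (95% interval -0.11 to 0.51) with the probe used, and its 6 kept probes ran from 0.06 to 0.20. One of them is placed by the file at chromosome 8, 94212520 to 94212579 (mm9), away from the gene's chromosome 6. Pgk1, phosphoglycerate kinase, differed by -0.45 (95% interval -1.01 to 0.12). Its probe is placed at chromosome 3, 57906830 to 57906894 (mm9), while the gene lies on the X chromosome, so that value is uncertain, since near-identical copies may share the signal. The other Pgk1 probe, on the X chromosome, gave -0.60. Pkm, pyruvate kinase of muscle and most other tissues, differed by -0.25 (-0.60 to 0.11).

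The lactate steps gave no call. Ldha, the main lactate dehydrogenase subunit of glycolytic tissue, read from 8.35 to 8.81 on the eGFP arrays and from 8.21 to 8.78 on the Hoxa9 arrays, a log2 difference of -0.01 (95% interval -0.42 to 0.39). Its 3 probes ranged from -0.43 to -0.01, and the one used is the one nearest 0. Ldhb, the heart-type subunit, differed by 0.19 (-0.12 to 0.50). The Ldhb to Ldha gap differed by 0.20 (exact permutation p = 0.171, 0.257 adjusted). The lactate carriers Slc16a1 (MCT1) and Slc16a3 (MCT4) differed by -0.05 and -0.34, and their gap by -0.30 (exact permutation p = 0.257).

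Among the hypoxia genes, Hif1a fell 1.40-fold by the probe used, from 1.49, 1.47, 1.69 and 1.68 to 0.96, 1.07, 1.28 and 1.07. The groups did not overlap, and the log2 difference was -0.49 (SE 0.14, limma adjusted p = 0.0477), with -0.40, -0.68 and -0.40 within the slides. The call sat at the threshold: it held in 4 of 18 alternatives, with adjusted p from 0.0269 to 0.528, and was lost with the replicate block (0.0576), with the slide as a block (0.0878) and on leaving out any 1 array. A second Hif1a probe, with a much lower signal and another transcript's accession, gave 0.13, and the mean of both probes gave -0.18 (adjusted p = 0.528). Egln3, a prolyl hydroxylase that marks HIF for destruction and is itself induced by HIF, differed by -0.29 (95% interval -0.76 to 0.19). Bnip3, a mitophagy receptor induced by low oxygen, differed by -0.12 (-0.64 to 0.40), and its 3 probes ran from -0.44 to 0.04.

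Across all 31 members, the groups did not overlap in 9 (29%), 4 higher and 5 lower, beside 23.5% of all genes tested. The ninth is Eno1. Of the 23 members not called, 19 had a 95% interval within 1 log2 unit of 0, and the other 4 (Pfkm, Pgk1, Pgam2 and Eno1) had an interval that reached beyond it. At the level of probes, 52 of the 54 were kept, and 5 were higher and 3 lower over 40773 probes tested, beside 6.7% higher and 6.65% lower of all probes. Of 13 members with several kept probes, the sign differed between probes in 4: Bnip3, Gpi1, Hif1a and Hk1, of which Hif1a alone was called.

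None of the 4 falls kept its call with the slide as a block, although each was lower within every slide. With the slide as a block, 4 members rose and 0 fell at the threshold, beside 6.11% and 5.14% of all genes. In that limma fit 7 members higher and 5 lower had an unadjusted p under 0.05. The share of all genes at that unadjusted threshold was not counted, so these 2 counts have no background here. The slide-blocked log2 differences of Pdk1, Pfkl, Pgam1 and Hif1a were -0.83, -0.80, -0.62 and -0.50, close to the values without the block. Under median scaling 1 of the 4, Pdk1, remained called. With the replicate number as a block 5 members rose and 3 fell, beside 8.35% and 7.85% of all genes.

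The muscle-type isozymes were set beside 26 genes of sarcomere and muscle differentiation, since satellite cells in culture can differentiate. The mean level of that list was 3.48, 3.33, 4.36 and 4.64 on the eGFP arrays and 4.01, 4.03, 4.86 and 5.13 on the Hoxa9 arrays. In both groups replicates 3 and 4 were higher than 1 and 2, and the groups overlapped. Pfkm and Pgam2 were ordered over the arrays much as this list was. Their lowest values were on eGFP replicates 1 and 2 and their highest on Hoxa9 replicate 4. Eno3, Aldoa and Hk2 were not ordered so. Eno3 was higher on eGFP replicates 1 and 2 (7.45 and 7.33) than on 3 and 4 (6.77 and 6.91), with Hoxa9 replicate 4 highest (7.62). Aldoa was highest on Hoxa9 replicate 2 (9.17), where Hk2 was lowest (1.34). Of the 26 genes, 3 rose (Myh2 by 3.14, Actn2 by 2.56 and Tnnc1 by 1.79) and 23 did not pass, with a median log2 difference of 0.41. Of all genes tested, 7.71% were called higher and 7.41% lower, the shares to set beside this list and those below. Tnnc1 was called in 10 of the 18 alternatives. With the replicate block 9 rose and 3 fell. The part of the list in the values of Pfkm and Pgam2 was not tested.

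**Figure D4:**
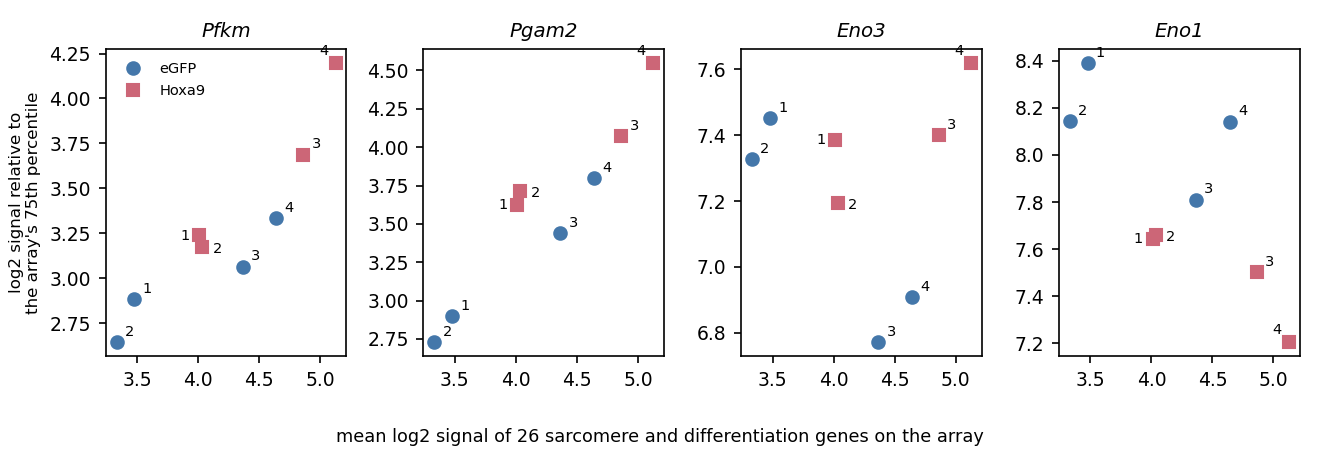
Level of Pfkm, Pgam2, Eno3 and Eno1 (vertical axes, log2 relative to the array's 75th percentile) against the mean level of 26 sarcomere and differentiation genes (horizontal axis) on the 8 arrays, numbered by replicate. Pfkm and Pgam2 rise with the list from eGFP replicate 2, at a list mean of 3.33, to Hoxa9 replicate 4, at 5.13. Eno3 is higher on eGFP replicates 1 and 2 than on 3 and 4, and Eno1 is lowest on Hoxa9 replicate 4, at 7.21.

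Genes of cell division moved with the comparison as well. Of 16 proliferation genes 15 fell and 1 (Cdk1) did not pass, with a median log2 difference of -1.79, among them Mki67 (-2.0), Bub1 (-1.95) and Pcna (-1.44). The list's mean ran from 2.91 to 3.27 on the eGFP arrays and from 0.97 to 1.97 on the Hoxa9 arrays. Its part in the members' values was not tested. In these bulk samples, fewer cells of a type and less RNA per cell cannot be told apart.

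Markers of the labelled cells and of others were read the same way. Of 7 satellite cell markers measured, 5 fell (such as Vcam1 by 2.59, Pax7 by 1.31 and Itga7 by 0.77). The count was 3 with the slide as a block, 4 with the replicate block, 3 without eGFP replicate 1, 3 or 4 or Hoxa9 replicate 4, and 2 without Hoxa9 replicate 3, while Vcam1 and Pax7 were called in all 18 alternatives. On every array in both groups all 7 were well above background. Calcr did not pass the filter on background. The list mean ran from 3.38 to 3.62 on the eGFP arrays and from 2.10 to 2.65 on the Hoxa9 arrays. Of 8 markers of differentiating muscle 1 rose (Actn2, which the sarcomere list also holds), with list means of 3.53 to 4.96 and 4.17 to 5.36. With the replicate block 2 of the 8 rose and 2 fell.

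Other cell types left few calls. The median log2 differences of their lists were -0.47 (fibroblast), -0.20 (smooth muscle), -0.33 (endothelial), -0.19 (blood) and -0.23 (adipocyte), all negative. The lowest differences were -2.61 in the fibroblast list, -2.07 in the endothelial list and -0.86 in the adipocyte list, and these did not pass. Of 7 fibroblast markers 1 rose (Ly6a, by 4.55), with list means of -1.20 to 0.18 on the eGFP and -1.27 to 0.58 on the Hoxa9 arrays. Another of the 7 fell with the replicate block (1 higher, 1 lower). Of 8 smooth muscle markers 1 rose (Cnn1, by 2.57) and 1 fell (Acta2, by 1.33), with list means of 0.55 to 1.17 and 0.68 to 1.55. Acta2 lost its call in 5 of the 18 alternatives, among them the removal of eGFP replicate 1, 3 or 4 or Hoxa9 replicate 1. The replicate block gave 2 higher and 1 lower. Of 6 endothelial markers 1 rose (Vwf, by 0.65), with list means of -1.90 to -1.61 and -2.68 to -1.77. Vwf was called in 8 of the 18 alternatives and lost its call without any 1 of eGFP replicates 1, 2 and 3 or Hoxa9 replicates 2, 3 and 4. With the replicate block 0 endothelial markers rose and 1 fell (limma), and Vwf had an adjusted p of 0.0583. Of 6 blood markers 0 were called and 0 had an unadjusted p under 0.05 (limma), with list means of -0.99 to -0.58 and -1.30 to -0.24, and Ptprc and Tyrobp did not pass the filter on background. Of 5 adipocyte markers 1 rose (Fabp4, by 3.49), with list means of -2.81 to -2.07 and -2.36 to -1.84, while Plin1 did not pass the filter and Adipoq was well above background on 2 arrays of each group. The part of these markers in the members' values was not tested.

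The neighbouring pathways were read from lists that hold none of the 31 members. Their counts stand beside 7.71% of all genes tested called higher and 7.41% called lower. In short lists a count of 1 or 2 lies near these shares. Among 14 other sugar, pyruvate and monocarboxylate transport genes, 6 rose and the other 8 did not pass, with a median log2 difference of 0.73. The count ran from 4 to 8 over the 18 alternatives. Slc2a3, which encodes the high-affinity glucose transporter GLUT3, rose by 3.79 (SE 0.17, limma adjusted p = 3.02e-05), from between -2.53 and -1.98 on the eGFP arrays to between 1.41 and 1.65 on the Hoxa9 arrays. Txnip, which restrains glucose uptake, rose by 2.46. Slc2a1, the glucose transporter among the members, had a log2 difference of -0.41 on the same arrays, as given above.

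Of 9 genes of the pyruvate dehydrogenase complex and pyruvate carboxylation, 1 rose and the other 8 did not pass, with a median of 0.10. That gene is Pcx, pyruvate carboxylase, which feeds pyruvate into oxaloacetate and rose by 1.51 (SE 0.18, limma adjusted p = 0.000935). Pdha1, whose product the kinases phosphorylate, and Dlat, another subunit gene, had log2 differences of -0.04 and 0.10. Among 16 other glycolysis genes, 2 rose and 1 fell, with a median of -0.22. These were Ldhd, a D-lactate dehydrogenase, by 1.22, Bpgm, which makes 2,3-bisphosphoglycerate, by 1.14, and Pfkfb1, another kinase of the Pfkfb family, at -0.88. The Pfkfb1 call held in 10 of the 18 alternatives: it was lost under quantile normalization, under median scaling, with the slide as a block (limma adjusted p = 0.063) and without any 1 of the 4 eGFP arrays or Hoxa9 replicate 1. The calls of Ldhd and Bpgm held in all 18.

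Of 9 pentose phosphate genes 1 rose and 2 fell, with a median of -0.24. H6pd, the hexose-6-phosphate dehydrogenase of the endoplasmic reticulum, rose by 1.25, while Prps2, which makes phosphoribosyl pyrophosphate, fell by 1.09 and Pgd, of the oxidative branch, by 0.78. Of 19 genes of glycogen and gluconeogenesis 2 rose and 17 did not pass, with a median of 0.20: Gyg, the glycogen primer glycogenin, by 0.80 and Pygl, a glycogen phosphorylase, by 0.75. Gyg was called in all 18 alternatives. Pygl was called in 10: its groups overlapped, its difference on slide 3 was -0.03, and the call was lost with no filter, with the slide as a block (limma adjusted p = 0.117) and without any 1 of eGFP replicates 1, 2 and 3 or Hoxa9 replicates 1, 2 and 4.

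Of 10 genes of the HIF machinery 1 rose and the other 9 did not pass, with a median of 0.27. It was Hif1an, an asparagine hydroxylase that restrains HIF, at 0.71 (SE 0.16, limma adjusted p = 0.0192, and 0.0136 to 0.0744 over the alternatives). The call was lost under median scaling and without any 1 of eGFP replicate 3 and Hoxa9 replicates 1, 3 and 4. With the replicate block it was lost too (0.0515), and 2 other genes of the list fell. Of 29 other genes known to be induced by low oxygen 5 rose and 3 fell, with a median of 0.11. Bhlhe40, a transcriptional repressor of the circadian system, rose by 3.06 and Tmem45a by 3.34, while Ddit4, an inhibitor of mTORC1 signalling, fell by 1.99. The 5 rises and the fall of Ddit4 were called in all 18 alternatives. The other 2 falls, Fam162a (-0.60) and Trib3 (-0.91), were called in 7 and 8 of them. Ddit4 alone remained as a fall under median scaling, with no filter, with the slide as a block and without any 1 of eGFP replicates 1, 2 and 4 or Hoxa9 replicates 1, 3 and 4. With normexp 5 genes of the list fell. Vegfa, which encodes a growth factor of blood vessels, had a log2 difference of -0.30 and did not pass.

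**Figure D5:**
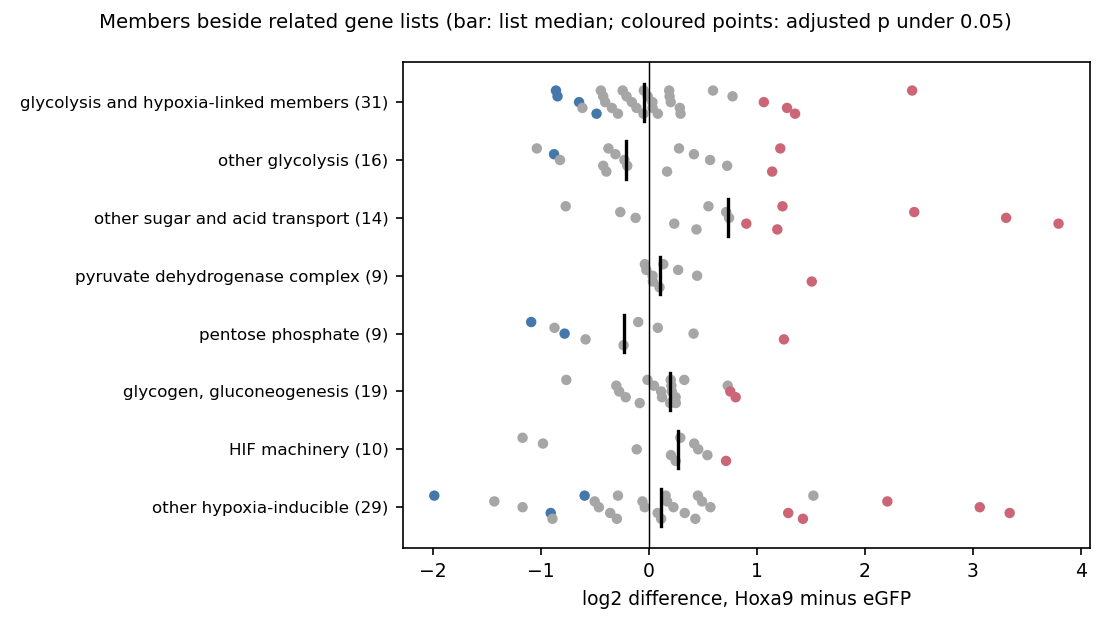
Log2 difference, Hoxa9 minus eGFP, of every measured gene of the members and of 7 neighbouring lists, with the number of genes in brackets, red for called higher, blue for called lower, grey for not called, and a bar at each median. The medians lie between -0.24 and 0.73, and the transport list, with Slc2a3 at 3.79, reaches farthest to the right.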

How the data were processed

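RNA (0.1 ug) was amplified and labelled with Cy3 per the labels' protocols, 1 array per sample. The deposited intensity values are scanner output that the authors obtained with Agilent Feature Extraction 10.7.3.1, background-subtracted and unscaled between arrays, per the file headers. The signal's 75th percentile was 514 to 779, and no spot was saturated. A second deposited table of score values had lost the decimal point in 86.1% to 87.3% of cells. With the point restored, column medians were -3.36, -3.23, -3.11 and -3.08 (eGFP) and -3.24, -3.26, -3.22 and -2.95 (Hoxa9). On every array 99.8% or more of these values fell within 0.05 of log2 scanner signal plus a fixed offset. They are therefore log2 signals of the same direction, not centred by gene, and were used as an alternative. Probe positions are in mm9 per the file headers. Annotation of mm9 was not used here, so exon or UTR is not stated. Symbols come from the files, updated through RefSeq (GRCm38.p6) accessions, which matched 27656 probes and renamed 1711.

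The log2 signal was centred on the 75th percentile of the non-control probes of its array. Outlier spots were removed (180 probes lost an array and were dropped) and repeat spots averaged. Probes had to be well above background on 4 or more of the 8 arrays (40773 kept), and the probe of highest mean stood for its gene (27110 genes). The test was limma 3.58.1 in R 4.3.3, moderated by eBayes and two-sided, with Benjamini-Hochberg adjustment over all genes at 0.05. Isozyme pairs were compared by exact permutation in scipy 1.17.1. The fit was also run on simulated data with independent arrays, a check of the code that does not bear on the calls here. The members, lists and tests were chosen with earlier results of these data known. Named genes are all members and up to 3 called genes of lowest adjusted p from each list. 1 such gene is counted in its list but not reported here. Pdha1, Dlat, Vegfa, Fam162a and Trib3 were added after their values were seen. Lists are described by counts and medians, without a set test.

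Titles give the groups the same replicate numbers. As a check of pairing, deviations from group means were correlated, giving 0.143, 0.228, 0.129 and 0.186 for like numbers. All passed 0.1, although 2 unlike-numbered pairs also passed (0.188 and 0.137), so the pairing is uncertain. Like-numbered samples were treated as pairs only in the replicate block and in the same-numbered differences. The main fit and the permutation tests did not use pairs. Slide 1 held eGFP 1 and 2 and Hoxa9 4, slide 2 held eGFP 3 and Hoxa9 1 and 2, and slide 3 held eGFP 4 and Hoxa9 3. The 18 alternatives were 2 other scalings (quantile and median), normexp (offset 50), no filter, a filter on all 8 arrays, the deposited table, averaging a gene's probes, blocks for slide and for replicate number, a robust prior with intensity trend, and omission of each of the 8 arrays.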

Additional observations from a re-analysis of the deposited data

Results flagged for a closer look

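Among 62 groups of 4 arrays (each member in each group), 2 held an array far from the other 3, where chance alone gives about 1 in 20. Aldoc on Hoxa9 replicate 4 read 2.63, with the other Hoxa9 arrays between 1.89 and 2.01, so that its gap was 0.845 of the group's range, past Dixon's 95% limit for 4 values. Eno2 on eGFP replicate 4 read -1.48, with the others between -1.91 and -1.83, a gap of 0.8295 of the range, just past that limit. Both genes were called higher without these arrays as well.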

How the results depend on the processing

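The 4 rises (Pdk4, Pdk2, Aldoc and Eno2) kept their direction and their call under all 18 alternatives. The count of lower members, 4 with group alone, was 1 under median scaling and 0 with the slide as a block, and ran from 1 to 4 when each array in turn was left out. The cause was not tested, beyond the fewer arrays of the latter fits. Of the other 8 alternatives that keep all arrays, counts of lower members ran from 3 to 5 and of higher members from 4 to 5. With the replicate block, 5 members were higher and 3 lower: Pgam2 was gained (adjusted p = 0.0197) and Hif1a lost (0.0576), and no other member's call changed. Over all genes, the called counts without 1 array ran from 1545 to 1873 higher and from 1303 to 1877 lower, against 2090 and 2010. Of 558 recomputed member differences, 501 kept direction and side of the threshold, 29 lost a call, 6 gained one and 22 changed sign, all in 6 members that were not called. Hk1 turned to 0.19 (quantile), 0.0046 (normexp) and 0.13 (mean of probes), and ran from -0.13 to 0.017 without 1 array. Gpi1 turned to -0.011 (mean of probes) and ran from -0.043 to 0.10. Ldha turned to 0.14 (quantile) and ran from -0.11 to 0.085. Slc16a1 turned to 0.0061 (normexp) and ran from -0.18 to 0.051. Pdk3 turned to -0.028 (normexp) and ran from -0.11 to 0.14. Bnip3 turned to 0.041 (quantile) and 0.045 (normexp) and ran from -0.27 to 0.018. The cause was not tested. Of the 11 isozyme pairs 7 had an adjusted p under 0.05, and 8 with normexp or the mean of probes, but 0 of 9 (lowest 0.0514) once the 2 pairs whose gap their genes fix were left out, an alternative chosen after seeing the data; with 4 arrays against 3 the exact test cannot go below 0.0571, so those runs give direction only, which was kept in all 11 pairs. Median scaling, quantile normalization and normexp moved the median difference of all genes from -0.08 to -0.10, -0.04 and -0.04.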
